A study of Homo sapiens with 29 samples.

Results

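LHCN-M2 myoblasts that had received nontargeting siRNA were compared after 96 and 48 h in differentiation media, the low-growth-factor media that lets myoblasts leave the cell cycle and form myotubes. The 6 arrays were taken by their labels, 3 biological replicates at each time, out of 29 arrays in the series. LHCN-M2 is a human skeletal myoblast line, immortalized with telomerase and CDK4, so the forced CDK4 is present in every group and the line is 1 selected clone. All 6 cultures received 20 nM of the nontargeting siRNA in 6-well plates and no treatment other than the media. The labels count the hours from transfection of confluent cells, whereas the methods count them in the media after a later change, so the start of the clock is uncertain while the interval of 48 h between the groups is the same in either reading. The other arrays hold the same cells in growth media at 24, 48 and 96 h, and the same media and times after ZNF148 siRNA. Total RNA was labelled with Cy3 and hybridized to a 1-colour Agilent array. Replicates are labelled as biological replicates, and nothing in the labels says whether the cultures were started on separate days.

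Myoblasts are committed to the muscle lineage by MYF5 and MYOD, then switch on myogenin and the MEF2 factors, leave the cell cycle, fuse into multinucleate myotubes and assemble sarcomeres, the repeating units of contraction. The developmental myosins and troponins appear before the adult forms, and the calcium store, the triads and the neuromuscular synapse are built afterwards. Cell cycle genes are normally shut while this happens, through the CDK inhibitors and the pocket proteins.

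Levels are given as normalized log2 signal of an array, and differences as 96 minus 48 h on that scale, where 1 unit is 2-fold, with the standard error of limma's fit over 3 arrays a group. A gene, represented by its brightest probe, was called higher or lower where limma's Benjamini-Hochberg adjusted p over all probes tested was under 0.05 and the difference was more than 2-fold. Levels of different probes are not comparable with each other. Counts for a list cover the members whose probe was well above background on at least 3 of the 6 arrays, 77 of 91 listed for the sarcomere, 32 of 35 for excitation-contraction coupling and 54 of 56 for G2 and M phase, and a member low at 1 time could pass through the other. Of 15603 genes tested, 990 were higher at 96 h (6.34%) and 715 were lower (4.58%), with a median difference of -0.03 over all genes. With normexp background correction 635 were higher and 396 lower. In 97 of the higher genes the probe was not well above background on any array at 48 h, and in 39 of the lower genes on any array at 96 h. For such genes only a bound is given, computed from the lowest signal among probes that were well above background. Among the called genes named here, CACNA1S, KIF14 and PTGS1 were well above background on 1 of the 3 arrays at 48 h, ADGRB1, ASB2, MB, MYOZ2, NUF2 and RRM2 on 2 of them, and LMOD1 on 1 array at 96 h. In bulk RNA, fewer cells of a type and less RNA per cell cannot be told apart.

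The cells carried the muscle programme on every array. Of 8 myoblast markers, 7 were well above background on all 6 arrays, and all 9 myotube markers were, with their summed level at 15.80 to 16.78 at 48 h and 18.78 to 18.96 at 96 h (log2). Of 8 fibroblast markers 6 were well above background on all 6 arrays, PDGFRA, THY1, LUM, DCN, COL1A1 and DPT, while TCF21 and PI16 were on none. Their summed level was 17.13 to 17.23 at 48 h and 16.90 to 16.97 at 96 h, with COL1A1 higher and DCN lower. No listed adipocyte, endothelial or leukocyte marker was called, the summed levels being 9.78 to 9.88 and 9.80 to 9.88, 7.88 to 8.02 and 7.85 to 8.07, and 8.66 to 9.35 and 8.72 to 8.95 at 48 and 96 h in that order. No neural marker passed the filter, and the smooth muscle and pericyte list, which holds desmin, was at 17.35 to 17.48 and 17.54 to 17.75 with none called.

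The 48 h cultures were less alike than the 96 h cultures. The median standard deviation over genes was 0.132 at 48 h and 0.0932 at 96 h, and over the 77 sarcomere genes it was 0.303 and 0.128. At 48 h replicate 1 was the highest array for 52 of those 77 genes and replicate 3 the lowest for 50. The arrays lay on 3 slides, and slides 2 and 3 each held both times. Of the 990 higher genes, 988 had the same direction on both slides, as had 714 of the 715 lower genes. These arrays also gave the calls, so agreement in direction was largely set in advance. Within slides 2 and 3, 949 and 841 of the higher genes and 654 and 511 of the lower genes were over 2-fold. Outside these 6 arrays, replicate 1 of nontargeting siRNA in growth media at 48 h stood apart in muscle genes (CKM at 16.03 against 5.83 and 5.91 on the other two), and it enters only the comparison with growth media and the common normalization. No spot was saturated.

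Regulators of myogenesis moved in both directions. Of 21 myogenic factors tested, 4 were higher and 4 lower, with a median of 0.12 against -0.03 over all genes. Myogenin (MYOG), the factor that drives terminal differentiation, was at 9.06, 8.15 and 7.35 at 48 h and 10.38, 10.33 and 10.57 at 96 h. All 96 h arrays were above all 48 h arrays, the difference was 2.24 ± 0.41 and limma's adjusted p was 0.00839. MEF2C, its partner at muscle promoters, was at 11.51, 11.12 and 10.60 at 48 h and 13.13, 13.25 and 13.28 at 96 h, and again the groups did not overlap (2.14 ± 0.23, adjusted p 0.00138). MEF2A (1.77) and RBM24 (1.10), an RNA-binding protein of muscle splicing, were the other risers. MEF2D was not called, with a difference of 0.12.

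Among the 4 that fell, MYF5, the early determination factor, was at 11.69, 12.77 and 13.19 at 48 h and 10.51, 10.56 and 10.38 at 96 h, a fall of every 96 h array below every 48 h array (-2.07 ± 0.37, limma adjusted p 0.00774). PAX3, a progenitor factor, fell by 1.22, NFIX, which drives the fetal programme, by 1.17, and MYF6, the last of the MYOD family, by 1.01. MYF6 varied little within the groups, at 12.80, 12.82 and 12.78 at 48 h and 11.73, 11.85 and 11.78 at 96 h. MYOD1 itself was at 16.84, 16.80 and 16.73 at 48 h and 17.26, 17.36 and 17.32 at 96 h, above every 48 h array at 96 h but under 2-fold (0.53 ± 0.07, adjusted p 0.00304). ZNF148, the target of the other siRNA, was at 9.44, 9.46 and 9.32 at 48 h and 9.83, 9.79 and 9.70 at 96 h in these nontargeting cultures, a difference of 0.37 ± 0.08 that is under 2-fold. PAX7, the satellite cell factor, depended on the probe. Its brightest probe was not called (-0.73, adjusted p 0.068), while a second probe was not well above background at 48 h (2.04, 2.07 and 2.09) and was at 6.80, 6.91 and 6.87 at 96 h, at least 7.46-fold higher (adjusted p 1.90e-05).

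**Figure D1:**
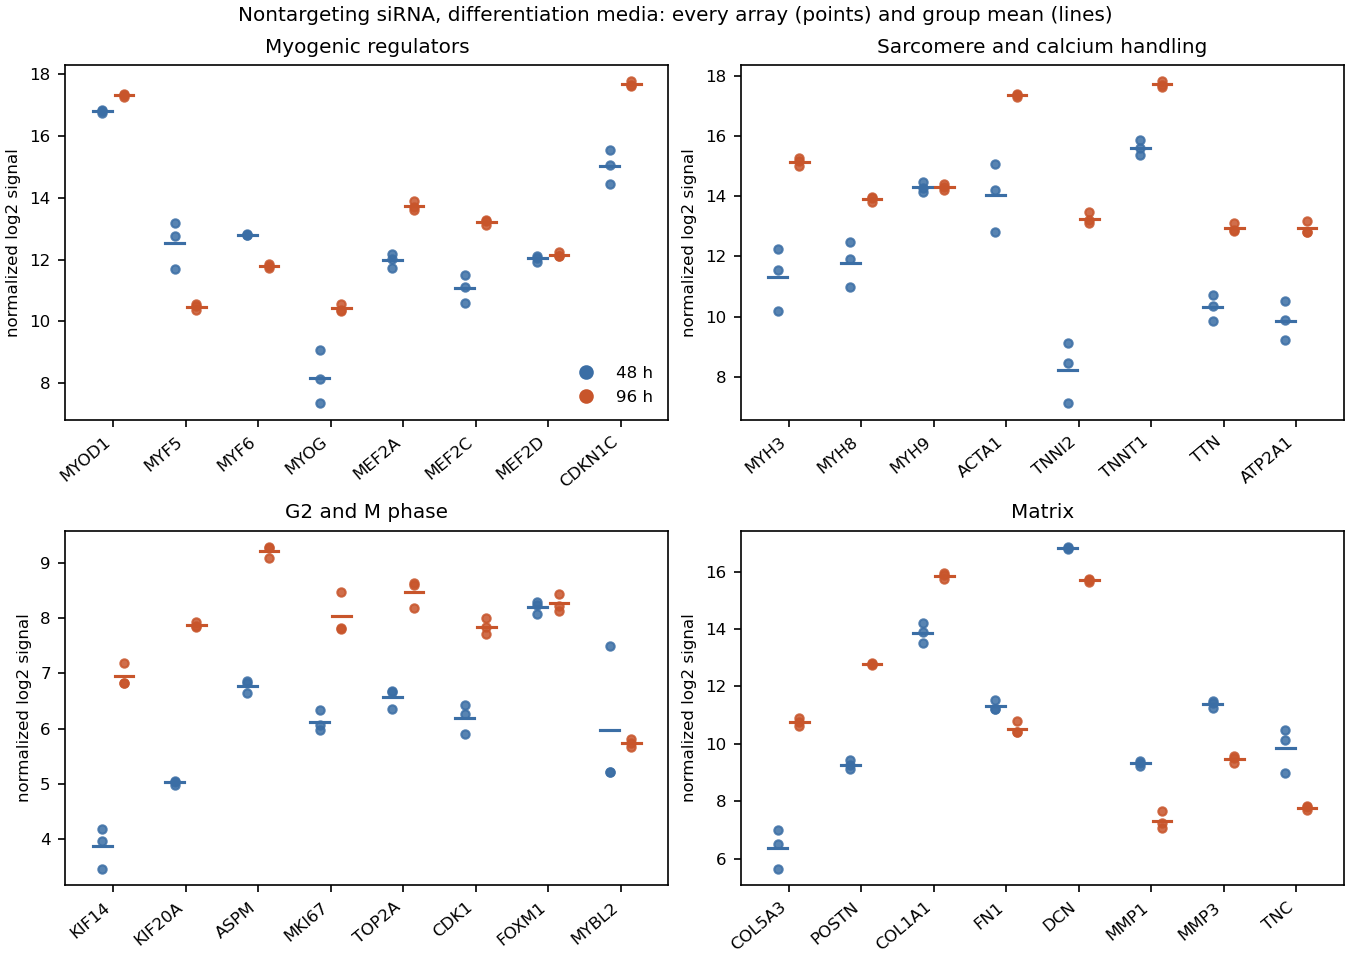
Normalized log2 signal of 32 genes on each array of nontargeting siRNA in differentiation media, 48 h in blue and 96 h in red, in 4 panels by role. Points are arrays and lines are group means of 3 arrays. MYOG, MEF2C, ACTA1 and KIF14 lie higher at 96 h and MYF5, DCN and TNC lower, while MYH9, MEF2D and FOXM1 overlap.

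Of 27 genes of progenitor signalling and its inhibitors, 7 were higher and none lower (median 0.37). The largest rise was SNAI1, a zinc finger repressor, at 6.97, 6.50 and 5.51 at 48 h and 10.12, 10.34 and 10.29 at 96 h, with no overlap (3.92 ± 0.36). HES6, a cofactor that favours differentiation, rose by 2.55 and HES4 by 2.73. SMAD7 (1.40) and FST (1.02), both antagonists of TGF-beta family signalling, rose with BMP4 (1.12) and SPRY2 (1.14). ID1, ID2 and ID3, which block MYOD family dimers, were at differences of 0.92, -0.15 and 0.57, none past 2-fold. Myostatin (MSTN) was well above background on 1 array of each group only and was not tested.

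Of 26 adhesion and fusion genes 5 were higher and 1 lower, with a median of 0.10. NCAM1, the adhesion molecule of fusing myoblasts, was at 10.77, 10.46 and 9.80 at 48 h and 12.63, 12.81 and 12.50 at 96 h, with no overlap (2.31 ± 0.25). BIN1 (1.77), which shapes T-tubules, DYSF (1.57), which repairs the membrane, ADGRB1 (1.51) and STAB2 (1.64), receptors with a role in fusion, rose too. ITGA3, a laminin-binding integrin, fell by 1.86. Myomaker (MYMK), the fusion protein of the myoblast membrane, was read differently by its probes. The brightest lay between 14.04 and 15.54 over all 29 arrays and did not change (-0.04), while the other went from 9.34, 8.60 and 7.94 to 12.36, 12.43 and 12.69 (3.87, adjusted p 0.000857). Over all probes tested 5.45% were higher and 4.19% lower. Myomixer (MYMX) was not analysed here.

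Genes of the contractile apparatus rose in number. Of 77 genes tested in 5 sarcomere lists, 43 were higher and 4 lower, with a median of 1.53 against -0.03 over all genes. Of the 43, 41 were over 2-fold within slide 2 and 43 within slide 3, on arrays also used for the calls. Groups did not overlap upwards for 54 of the 77, against 29.8% of all genes. Among 8 myosin heavy chains, the motors of the thick filament, 5 rose and none fell (median 1.64), against 2 called in a fit over all 29 arrays. Embryonic myosin MYH3 was at 12.245, 11.534 and 10.183 at 48 h and 15.005, 15.181 and 15.274 at 96 h, a 14.2-fold rise with every 96 h array above every 48 h array (3.83 ± 0.50, limma adjusted p 0.00264). Perinatal MYH8 rose by 2.13, slow MYH7 by 2.44, fast MYH2 by 2.55 and MYH7B by 1.16.

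The remaining myosins stayed low or level. Adult fast MYH1 was not well above background on any of the 6 arrays, MYH4 and MYH13 each on 1 array at 48 h and on none at 96 h, and MYH15 on 2 arrays at 48 h and on none at 96 h, and MYH6 and MYH11 each on 1 array at 96 h, so these were not tested. Nonmuscle MYH9, at 14.47, 14.27 and 14.16 at 48 h and 14.30, 14.20 and 14.42 at 96 h, had overlapping groups (0.01 ± 0.11). The myosin heavy chains are similar in sequence and the probe sequences were not analysed here, so shared signal between members was not tested. Of 12 light chains 6 rose and none fell (median 1.24), led by embryonic MYL4 at 8.97, 8.15 and 7.26 at 48 h and 12.23, 12.24 and 12.53 at 96 h (4.21 ± 0.42), fast MYL11 at 3.47 and MYL1 at 2.90.

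Troponins and tropomyosins, the calcium switch of the thin filament, had 8 higher and 1 lower of 12 (median 2.21). Fast troponin I, TNNI2, had the second largest rise of all genes well above background on all 6 arrays, at 9.12, 8.46 and 7.11 at 48 h and 13.10, 13.20 and 13.47 at 96 h, which is 32.6-fold with no overlap (5.03 ± 0.50, limma adjusted p 0.00114). Fast TNNC2 (3.93) and TNNT3 (3.41) and slow TNNI1 (3.48), TNNC1 (3.16) and TNNT1 (2.10) rose too, as did cardiac-type TNNT2 (2.05). Cardiac TNNI3 alone fell, at 5.53, 6.53 and 6.70 at 48 h and 5.24, 5.14 and 5.00 at 96 h (-1.13). TPM1 rose on the brightest of its 3 probes (2.31) and was at 0.01 and 0.70 on the others. TPM2, TPM3 and TPM4 were at -0.67, -0.52 and -0.61, under 2-fold, although 1 of 6 TPM3 probes was at 2.73.

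Thin filament genes had 6 of 11 higher, none lower and a median of 2.43. KLHL40, which stabilizes nebulin, was at 6.596, 6.062 and 4.593 at 48 h and 10.261, 10.496 and 10.559 at 96 h, 25.8-fold higher at 96 h with no overlap (4.69 ± 0.50, limma adjusted p 0.00142). Nebulin (NEB) RNA rose by 2.43 and that of LMOD2, a leiomodin that nucleates actin, by 3.90. TMOD1, the cap of the pointed end, rose by 3.59. Skeletal actin ACTA1 was at 15.07, 14.21 and 12.82 at 48 h and 17.30, 17.39 and 17.42 at 96 h (3.34 ± 0.54) and cardiac actin ACTC1 at 8.26, 8.06 and 7.35 at 48 h and 10.69, 10.98 and 10.79 at 96 h (2.93 ± 0.24), each without overlap.

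The titin, Z-disc and M-band list had 18 higher and 3 lower of 34 (median 1.09). Titin (TTN), the molecular ruler of the sarcomere, was at 10.71, 10.35 and 9.86 at 48 h and 12.88, 12.84 and 13.12 at 96 h, with no overlap (2.64 ± 0.22). MYOZ2 of the Z-disc rose by 4.04, ANKRD2, a stretch-responsive titin ligand, by 3.98, the M-band protein MYOM3 by 3.88 and SMPX, a small costameric protein, by 3.67. The myosin chaperone UNC45B (3.29) and the methyltransferase SMYD1 (3.22), which act together in thick filament assembly, both rose. Desmin (DES), at 17.18, 17.07 and 17.03 at 48 h and 17.31, 17.21 and 17.44 at 96 h, was not called (0.23 ± 0.09). SYNPO2, FHL3 and OBSL1 fell by 1.84, 1.08 and 1.07.

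The promoters of MYOG, KLHL40, SMPX and MYOM3 are shown because they hold letters that match the E-box, the MEF2 box or both. They are RefSeq promoters on GRCh38.p14, 250 bases before to 50 after the gene start, 5′ to 3′ on the gene's strand. Capitals mark the E-box CANNTG, the site of MYOD and myogenin, and the MEF2 box, both searched on both strands. The MEF2 box was taken strictly as YTAWWWWTAR, where Y is C or T, W is A or T and R is A or G. The MYOG promoter holds ctatatttat, which differs from this pattern in the last letter only and is therefore not marked. MYOG lies on the minus strand at chr1:203085963-203086262, KLHL40 on the plus strand at chr3:42685287-42685586, SMPX on the minus strand at chrX:21758067-21758366 and MYOM3 on the minus strand at chr1:24112086-24112385.
MYOG: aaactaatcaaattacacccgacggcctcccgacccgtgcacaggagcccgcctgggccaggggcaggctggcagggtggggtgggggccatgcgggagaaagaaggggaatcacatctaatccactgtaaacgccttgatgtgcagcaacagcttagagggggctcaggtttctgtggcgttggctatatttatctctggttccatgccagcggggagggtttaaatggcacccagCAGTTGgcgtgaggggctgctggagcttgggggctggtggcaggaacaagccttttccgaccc
KLHL40: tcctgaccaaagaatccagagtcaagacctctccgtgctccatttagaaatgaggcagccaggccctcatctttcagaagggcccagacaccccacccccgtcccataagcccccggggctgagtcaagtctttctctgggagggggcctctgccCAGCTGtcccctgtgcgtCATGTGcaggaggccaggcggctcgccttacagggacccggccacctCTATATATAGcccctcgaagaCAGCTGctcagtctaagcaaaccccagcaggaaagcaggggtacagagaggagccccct
SMPX: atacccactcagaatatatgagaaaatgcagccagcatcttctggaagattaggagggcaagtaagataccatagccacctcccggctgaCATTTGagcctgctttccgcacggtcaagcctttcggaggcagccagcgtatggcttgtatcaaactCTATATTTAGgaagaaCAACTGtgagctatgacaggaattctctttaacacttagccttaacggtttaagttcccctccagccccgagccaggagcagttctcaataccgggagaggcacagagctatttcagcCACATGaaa
MYOM3: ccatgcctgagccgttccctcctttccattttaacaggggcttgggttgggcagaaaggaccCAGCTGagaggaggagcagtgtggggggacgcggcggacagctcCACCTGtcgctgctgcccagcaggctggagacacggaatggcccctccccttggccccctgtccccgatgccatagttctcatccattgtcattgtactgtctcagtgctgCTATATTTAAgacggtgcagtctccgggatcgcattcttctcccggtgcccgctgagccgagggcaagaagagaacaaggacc

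Of the sarcomere and excitation-contraction genes that rose, 42 had a promoter in the table. Of these, 37 held an E-box (88.1%), against 62.1% of 12097 promoters of genes tested and 68.9% of all 27303 promoters in the table. The MEF2 box was in 11 (26.2%), namely ATP2A2, CASQ2, KLHL40, MYH8, MYOM3, MYOZ2, PVALB, SMPX, SYNPO2L, TTN and XIRP1, against 1.88% and 3.09%. Over all genes the MEF2 box was in 5.73% of the higher and 0.943% of the lower promoters, and the E-box in 67.7% and 63.4%. The MEF2 box shares letters with the TATA box. In 2 of the 11 promoters, KLHL40 and MYOM3, the match lay 40 to 15 bases before the start, where a TATA box would lie. Neither of these held TATAAA, which was in 1 of the 11, that of MYH8. A match of letters says nothing of binding, and these shares were not tested.

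**Figure D2:**
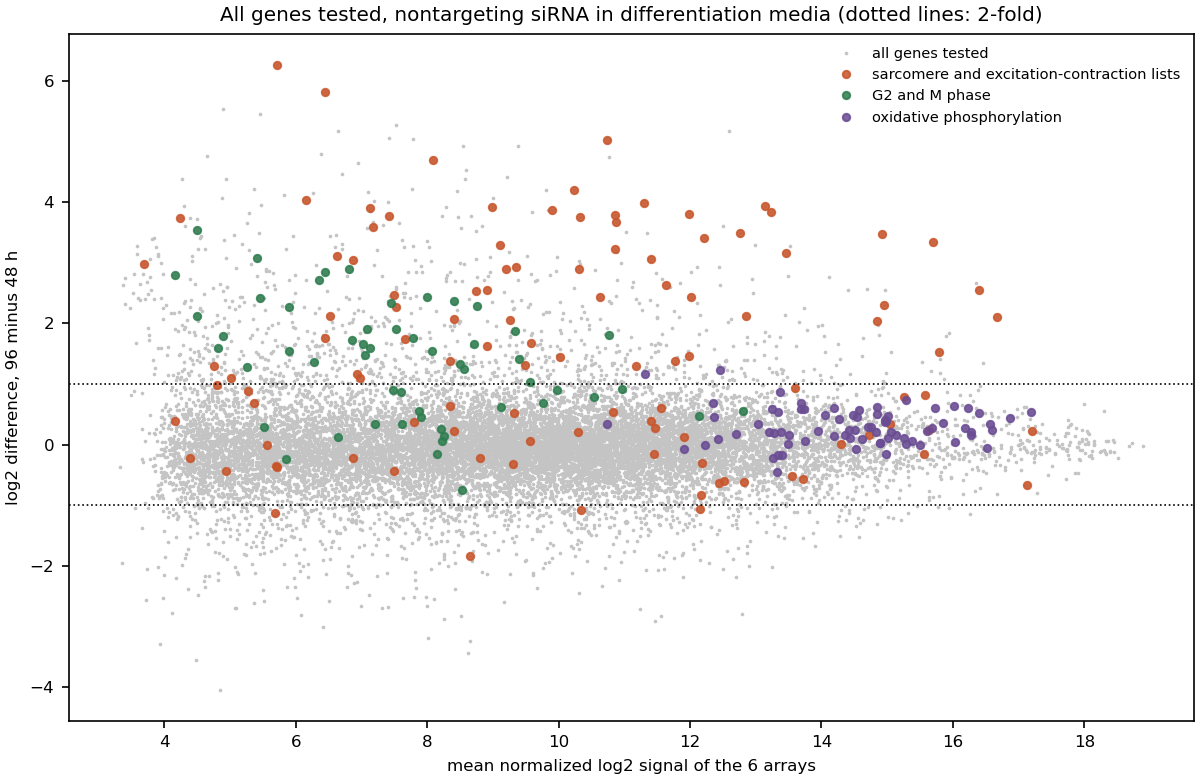
Log2 difference of 96 minus 48 h against the mean normalized log2 signal of the 6 arrays, 1 point for each of 15603 genes tested, with dotted lines at 2-fold. Sarcomere and excitation-contraction genes (red) and G2 and M phase genes (green) lie mostly above 0, and 67 of 76 oxidative phosphorylation genes (purple) lie above 0 but within 2-fold for all except 2.

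The calcium system of the muscle fibre rose with the sarcomere. Of 32 excitation-contraction genes 20 were higher and none lower, with a median of 1.39. SRL, a sarcoplasmic reticulum glycoprotein, was not well above background on any 48 h array, its signals were 2.85, 2.73 and 2.15 at 48 h and 8.14, 8.76 and 9.62 at 96 h, and it was at least 29.5-fold higher. PVALB, the calcium buffer of fast fibres, was likewise not well above background at 48 h, with signals of 4.308, 3.208 and 3.104 at 48 h and 9.053, 9.291 and 9.750 at 96 h, and was at least 42.4-fold higher, and triadin (TRDN), an anchor of the triad, at least 4.46-fold.

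The release channel RYR1 was at 9.30, 8.65 and 8.25 at 48 h and 10.32, 10.31 and 10.61 at 96 h (1.68 ± 0.27, limma adjusted p 0.00515), and its voltage sensor subunits rose by 3.79 (CACNG1), 2.07 (CACNB1), 1.39 (CACNA2D1) and 1.30 (CACNA1S). The fast calcium pump ATP2A1 was at 10.52, 9.87 and 9.21 at 48 h and 12.80, 12.81 and 13.18 at 96 h (3.06 ± 0.33), and the slow pump ATP2A2 rose by 1.30. None of these groups overlapped. Calsequestrin CASQ2, which holds calcium in the store, rose by 3.77. SCN4A, the sodium channel of adult muscle, rose by 3.04. The potassium channels KCNJ12 (3.75) and KCNJ18 (3.80) are near-identical copies, so their values may not be separate measurements.

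Of 15 neuromuscular junction genes 7 rose and none fell (median 0.79). DOK7, the activator of MUSK, was at 12.62, 12.04 and 10.99 at 48 h and 15.08, 15.24 and 15.16 at 96 h (3.28 ± 0.40), without overlap. Subunits of the acetylcholine receptor rose by 2.61 for CHRNB1, 2.44 for CHRND and 2.25 for the fetal subunit CHRNG. CHRNA1 was at 0.79, the adult subunit CHRNE at -0.64 and MUSK at -0.31, none past 2-fold. The dystrophin complex, which ties the cytoskeleton to the matrix, had 3 of 18 higher and 1 lower (median 0.04). DTNA (1.57), SNTB1 (1.35) and SGCD (1.01, with 1 of its 3 probes at -0.42) rose, while dystrophin itself (DMD) was at 0.88 ± 0.09.

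**Figure D3:**
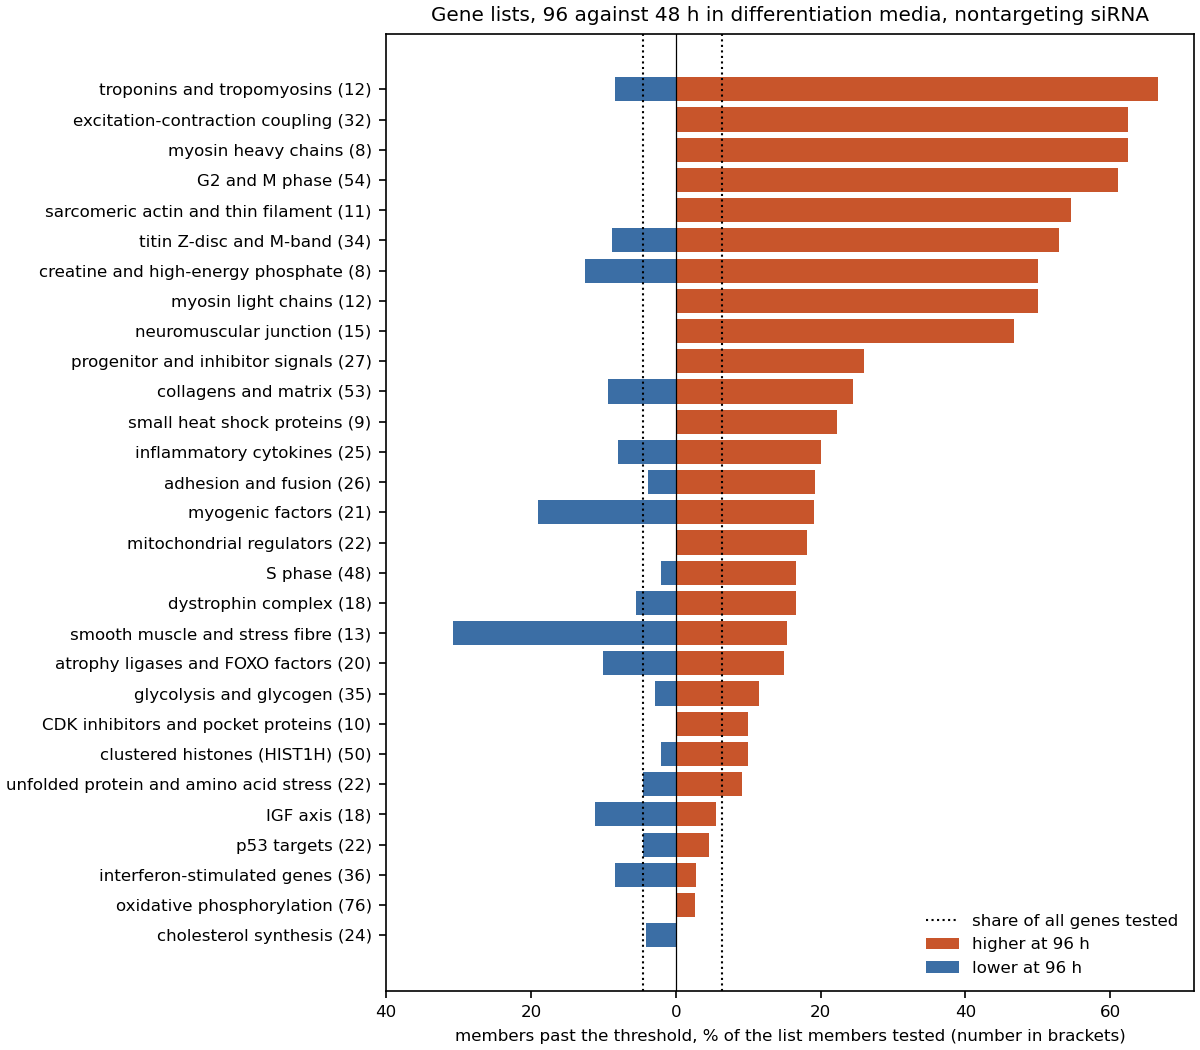
Share of the tested members of each gene list that were called higher (red, to the right) or lower (blue, to the left) at 96 h, in percent, with the number tested in brackets. Dotted lines mark the shares over all genes, 6.34% higher and 4.58% lower. Troponins and tropomyosins, excitation-contraction coupling, myosin heavy chains and G2 and M phase lead the rises.

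Energy genes are given by pathway. Of 8 creatine and high-energy phosphate genes 4 rose and 1 fell (median 1.35). Muscle creatine kinase CKM was at 11.54, 10.81 and 9.73 at 48 h and 14.09, 14.33 and 14.48 at 96 h, 12.2-fold higher with no overlap (3.61 ± 0.44, limma adjusted p 0.00219). GATM, the first enzyme of creatine synthesis, rose by 3.87 and CKB by 1.90. The AMP deaminases went opposite ways, the muscle form AMPD1 by 3.23 and AMPD3 by -2.36.

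Glycolysis and glycogen genes had 4 of 35 higher, 1 lower and a median of -0.13. The 4 were the muscle enolase ENO3 (2.50), the muscle mutase PGAM2 (2.19), glycogen synthase GYS1 (1.63) and the insulin-regulated glucose carrier SLC2A4, which was not well above background at 48 h and at least 1.94-fold higher. PHKA1, a subunit of phosphorylase kinase, fell by 1.12. Lactate dehydrogenase LDHA (-0.13) and the muscle phosphofructokinase PFKM (-0.22) were not called.

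Of 76 oxidative phosphorylation genes 2 were called higher, CYCS (1.24), which carries electrons, and COX6A2 (1.16), the muscle form of a cytochrome oxidase subunit, a smaller share than the 6.34% of all genes. Yet 67 of the 76 lay above 0, with a median of 0.24, against 7363 of 15603 genes and a median of -0.03. Without the fold threshold 40 of the 76 were higher at an adjusted p under 0.05 in limma and 1 was lower, against 21.9% and 23.3% of all genes. Among 22 regulators and carriers of mitochondria 4 rose and none fell (median 0.03). UCP2 rose by 3.84, the nucleotide carrier SLC25A4 by 1.65, myoglobin (MB) by 1.47 and the fatty acid carrier FABP3 by 1.06. PPARGC1A, the coactivator of mitochondrial genes, was at -0.24 and TFAM at 0.17, neither called.

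Genes of the late cell cycle rose between 48 and 96 h. Of 54 G2 and M phase genes 33 were higher at 96 h and none lower, with a median of 1.44, 51 above 0, and 45 without overlap upwards against 29.8% of all genes. Within slides 2 and 3 the 33 had medians of 1.88 and 1.90, on arrays also used for the calls. KIF14, a motor of cytokinesis, was at 4.18, 3.97 and 3.46 at 48 h and 6.82, 7.19 and 6.83 at 96 h (3.08 ± 0.21, limma adjusted p 0.000449). KIF20A, another such motor, was at 5.04, 5.06 and 4.98 at 48 h and 7.84, 7.94 and 7.86 at 96 h, and the narrow groups did not overlap (2.85 ± 0.07, adjusted p 4.7e-05). The spindle protein DLGAP5 rose by 2.90, the kinetochore proteins SPC25 by 2.71 and NUF2 by 2.42, and ASPM of the spindle pole by 2.44.

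The kinases and cyclins that drive mitosis were among them. CDK1 was at 5.901, 6.423 and 6.264 at 48 h and 7.718, 7.997 and 7.832 at 96 h (1.65 ± 0.16), with no overlap. AURKA rose by 2.29, BUB1 by 1.73 and cyclin A2 (CCNA2) by 1.55, while cyclin B1 (CCNB1) was at 0.79 ± 0.08, under 2-fold. The proliferation marker MKI67 was at 6.06, 6.34 and 5.97 at 48 h and 8.47, 7.80 and 7.83 at 96 h and rose by 1.91 ± 0.21, and TOP2A, which untangles chromosomes, by 1.91. Not well above background on any 48 h array were the centromeric histone CENPA, at least 4.92-fold higher at 96 h, NEK2 and TTK, at least 3.03-fold and 3.03-fold, and CDC25C, at least 2.99-fold. FOXM1 and MYBL2, transcription factors of these genes, were not called (0.07 ± 0.11 and -0.24 ± 0.62), and the MYBL2 arrays read 7.49, 5.22 and 5.22 at 48 h and 5.66, 5.74 and 5.81 at 96 h, replicate 1 at 48 h lying above all others.

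Of 48 S phase genes, 8 were higher and 1 lower (median 0.24), led by UHRF1, which maintains DNA methylation, at 8.61, 8.01 and 7.70 at 48 h and 10.41, 10.54 and 10.49 at 96 h (2.37 ± 0.23). E2F1 (1.52), the factor of S phase entry, and RRM2 (1.502), which makes deoxynucleotides, rose, and the checkpoint kinase CHEK1 fell by 1.18. PCNA (0.08) and MCM2 (-0.08) of the replication fork were not called. Of 50 clustered histone genes 5 rose and 1 fell (median 0.08), the rises being H1-2, H1-3, H1-5, H2AC16 and H3C2 at 1.04 to 1.59, while H2BC12 fell by 1.20 on its brighter probe and was at -0.04 on the other. These histone genes share long stretches of sequence, and shared signal was not tested.

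Against cultures in growth media the cell cycle genes were low at both times. For 53 of the 54 G2 and M phase genes every 48 h array was below all 8 nontargeting growth arrays, and at 96 h every array still was for 53. Their median level against the 48 h group was 4.67 in growth media at 48 h, 1.44 at 96 h in differentiation media and -1.47 after ZNF148 siRNA at 96 h in differentiation media (log2). Over all genes these medians were -0.05, -0.03 and -0.13. All 48 S phase genes were below all growth arrays at both times. The share of all genes below every growth array was not computed. COL1A1 and DCN, of the fibroblast list, also changed over these arrays, and the part of other cell types in these levels was not tested.

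Of 10 CDK inhibitors and pocket proteins 1 rose and none fell (median 0.11). CDKN1C, which encodes p57, was at 15.55, 15.05 and 14.43 at 48 h and 17.62, 17.64 and 17.76 at 96 h, 6.32-fold higher with no overlap (2.66 ± 0.27, limma adjusted p 0.00129). CDKN1A, which encodes p21, was at 10.02, 9.56 and 9.47 at 48 h and 10.17, 9.80 and 10.50 at 96 h, with overlapping groups (0.47 ± 0.23), and RB1 at 0.49 ± 0.08.

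The promoters of CENPA, on the plus strand at chr2:26785806-26786105, and KIF14, on the minus strand at chr1:200620702-200621001, are shown for the letters that mark many promoters of mitotic genes. Build, source and window are those given above, and capitals mark the CCAAT box and the cell cycle homology region TTTGAA on either strand. Both motifs were chosen after the rise of these genes was seen.
CENPA: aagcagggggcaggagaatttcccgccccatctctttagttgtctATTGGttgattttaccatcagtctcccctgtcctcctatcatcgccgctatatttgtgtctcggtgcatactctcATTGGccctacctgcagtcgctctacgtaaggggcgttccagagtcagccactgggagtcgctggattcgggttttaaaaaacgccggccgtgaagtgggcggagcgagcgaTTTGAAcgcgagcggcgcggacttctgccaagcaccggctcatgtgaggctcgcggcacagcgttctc
KIF14: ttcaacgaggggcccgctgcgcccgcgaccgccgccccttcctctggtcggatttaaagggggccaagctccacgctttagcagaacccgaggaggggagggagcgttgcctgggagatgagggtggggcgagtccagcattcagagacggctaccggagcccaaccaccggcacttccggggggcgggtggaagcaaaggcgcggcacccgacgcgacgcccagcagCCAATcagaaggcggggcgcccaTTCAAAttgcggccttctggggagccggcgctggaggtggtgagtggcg

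Of the 33 genes that rose 27 had a promoter in the table. CCAAT was in 21 of them (77.8%), against 36.4% of the promoters of genes tested and 35.7% of all promoters, and TTTGAA in 20 (74.1%), against 10.4% and 15.4%. None held the MEF2 box. Over all genes the higher ones held CCAAT in 37.3% and TTTGAA in 14.8%, and CCAAT was in 32.1% of the lower ones.

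Matrix genes were remodelled in both directions, with 13 of 53 higher, 5 lower and a median of 0.30. COL5A3, a minor chain of type V collagen, was at 6.99, 6.51 and 5.65 at 48 h and 10.76, 10.61 and 10.92 at 96 h (4.38 ± 0.33). Periostin (POSTN), a matricellular protein, was at 9.44, 9.25 and 9.12 at 48 h and 12.78, 12.82 and 12.74 at 96 h (3.51 ± 0.10). Neither pair of groups overlapped. COL19A1, which is made by differentiating muscle, rose by 3.27, COL1A1 by 1.98, COL3A1 by 1.12, and CCN1 and CCN2, matricellular targets of serum and YAP signalling, by 1.89 and 1.59. COL16A1 rose by 2.45 on its brightest probe and was at -0.52 on the other. The collagenase MMP1 was at 9.22, 9.40 and 9.34 at 48 h and 7.24, 7.65 and 7.08 at 96 h (-2.003 ± 0.161), and MMP3 fell by 1.91, tenascin (TNC) by 2.10, COL14A1 by 1.23 and decorin (DCN) by 1.14. Fibronectin (FN1) was at -0.79 ± 0.15, under 2-fold.

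Smooth muscle and stress fibre genes had 2 of 13 higher and 4 lower (median -0.61). ACTA2 (1.66) and TAGLN (1.52), which immature skeletal muscle also makes, rose. Smooth muscle actin ACTG2 fell by 1.27, LMOD1 by 1.42, the myosin kinase MYLK by 1.71 and SYNPO2, already counted with the Z-disc, by 1.84.

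Of 18 genes of the IGF axis, which promotes myoblast survival and differentiation, 1 rose and 2 fell (median -0.12). IGF2 was at 17.65, 17.71 and 17.64 at 48 h and 18.31, 18.33 and 18.36 at 96 h, every 96 h array above every 48 h array, but under 2-fold (0.66 ± 0.07), and H19, the noncoding RNA beside it, was at 0.32 ± 0.08. IGFBP6 fell by 1.54. IGFBP5 was at 8.27, 9.53 and 10.08 at 48 h and 7.73, 7.89 and 7.76 at 96 h, a fall of 1.501 with a wide spread at 48 h. IGFBP1 was not well above background at 48 h and at least 1.63-fold higher.

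Stress, immune and turnover lists changed in few members. Of 20 atrophy ligases and FOXO factors 3 rose and 2 fell (median 0.08): the titin-binding ligases TRIM54 (2.71) and TRIM63 (1.88) and ASB2 (2.35) rose, and the ligase FBXO32 fell by 1.40 and DDIT4, an inhibitor of mTOR, by 1.29. Of 9 small heat shock proteins the muscle members HSPB8 (2.71) and HSPB3 (1.32) rose, none fell, and CRYAB was at 0.95 ± 0.10 (median of the list 0.35). Of 36 interferon-stimulated genes 1 rose and 3 fell (median -0.15), USP18, which dampens the interferon receptor, at 2.67, and IFIT1, IFI44L and IRF9 at -2.18, -1.28 and -1.04. Of 25 inflammatory genes 5 rose and 2 fell (median 0.10).

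In that last list CCL2, a monocyte chemokine, was at 8.61, 7.77 and 6.12 at 48 h and 10.10, 10.30 and 10.25 at 96 h (2.72 ± 0.60), with no overlap but a wide spread at 48 h. CXCL12 rose on 1 of 3 probes (2.71, the others 0.23 and -0.86), PTGS1 by 2.63, TNFAIP6 by 1.43 and LIF by 1.04, while complement factor CFB fell by 1.03 and SAA1, not well above background at 96 h, was at least 1.96-fold lower. Of 24 cholesterol synthesis genes none rose and STARD4 fell by 1.36 (median -0.29). Of 22 p53 targets PLK3 rose (1.30) and CCNG1 fell by 1.12 (median -0.26). Of 22 genes of the unfolded protein and amino acid stress response ASNS (1.40) and CHAC1 (1.21) rose and PSAT1 fell by 1.11 (median -0.10).

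Outside the lists, the largest rise among genes well above background on all 6 arrays was DMBT1, a secreted scavenger receptor protein, at 11.03, 10.32 and 8.70 at 48 h and 14.95, 15.26 and 15.33 at 96 h, 35.9-fold higher (5.17 ± 0.58, limma adjusted p 0.00162). C1QL4 rose by 4.93, PADI2, a protein deiminase, by 4.92, MXRA5, a matrix remodelling protein, by 4.75, AIF1L, an actin-binding protein, by 4.54 and RASL10A by 4.42. EEF1A2, the elongation factor that replaces its general form in mature muscle, was at 5.71, 5.73 and 5.55 at 48 h and 9.76, 9.73 and 10.16 at 96 h (4.22 ± 0.14). Among genes with no signal well above background at 48 h, FOXS1 was at least 18.7-fold, UGT2B4 13.0-fold and C12orf42 11.4-fold higher.

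The largest falls outside the lists were led by a pump and a carrier protein. ATP2A3, a calcium pump of nonmuscle cells, was at 9.98, 10.38 and 10.64 at 48 h and 6.44, 7.75 and 6.50 at 96 h (-3.44 ± 0.39). CRABP2, which delivers retinoic acid to the nucleus, was at 10.35, 10.21 and 10.23 at 48 h and 7.10, 6.86 and 7.14 at 96 h (-3.23 ± 0.10, limma adjusted p 0.000101) on its brighter probe, while its other probe was at 0.34 and not called. HMGA1, a chromatin protein of dividing cells, was at 14.05, 14.16 and 14.37 at 48 h and 11.41, 11.32 and 11.48 at 96 h (-2.79 ± 0.11). In all 3 the groups did not overlap. STAC fell by 3.19, DAPL1 by 3.01, the peptidase DPP4 by 2.91, TNPO1-DT by 2.88, FOXC2-AS1 by 2.82, the WNT antagonist SFRP1 by 2.82 and ITGA10, a collagen receptor, by 2.71. For noncoding transcripts beside or against a gene, signal of the gene on the other strand was not tested. Not well above background at 96 h were HPSE, at least 6.72-fold lower, PTPRQ (5.00-fold), TCF7 (4.96-fold), WFDC10B (4.45-fold) and OGDHL (4.13-fold).

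The time effect was then set against that after ZNF148 siRNA in the same media and times, over 12 arrays and 16558 genes. In limma's test of the difference of both effects, 1719 genes were higher with nontargeting siRNA (10.4%) and 1428 lower (8.62%). Of 86 sarcomere genes 46 were higher and 4 lower (median 1.42 against 0.02 over all genes), and of 33 excitation-contraction genes 19 and none. A fit over all 29 arrays called 20 of the 86 sarcomere and 11 of the 33 excitation-contraction genes for this difference, against 3016 of all 16558 genes. MYH3 went from 11.32 ± 1.05 to 15.15 ± 0.14 (SD, n = 3) with nontargeting siRNA and was at 18.39 ± 0.04 and 18.29 ± 0.07 after ZNF148 siRNA, a difference of effects of 3.94 ± 0.56 (adjusted p 0.000406). Against the nontargeting 48 h group the median sarcomere level was 4.08 after ZNF148 siRNA at 48 h and 3.85 at 96 h. Over all genes these medians were -0.11 and -0.13. At 96 h 63 of 77 sarcomere genes were still below every ZNF148 siRNA array of that time. The share of all genes so placed was not computed.

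**Figure D4:**
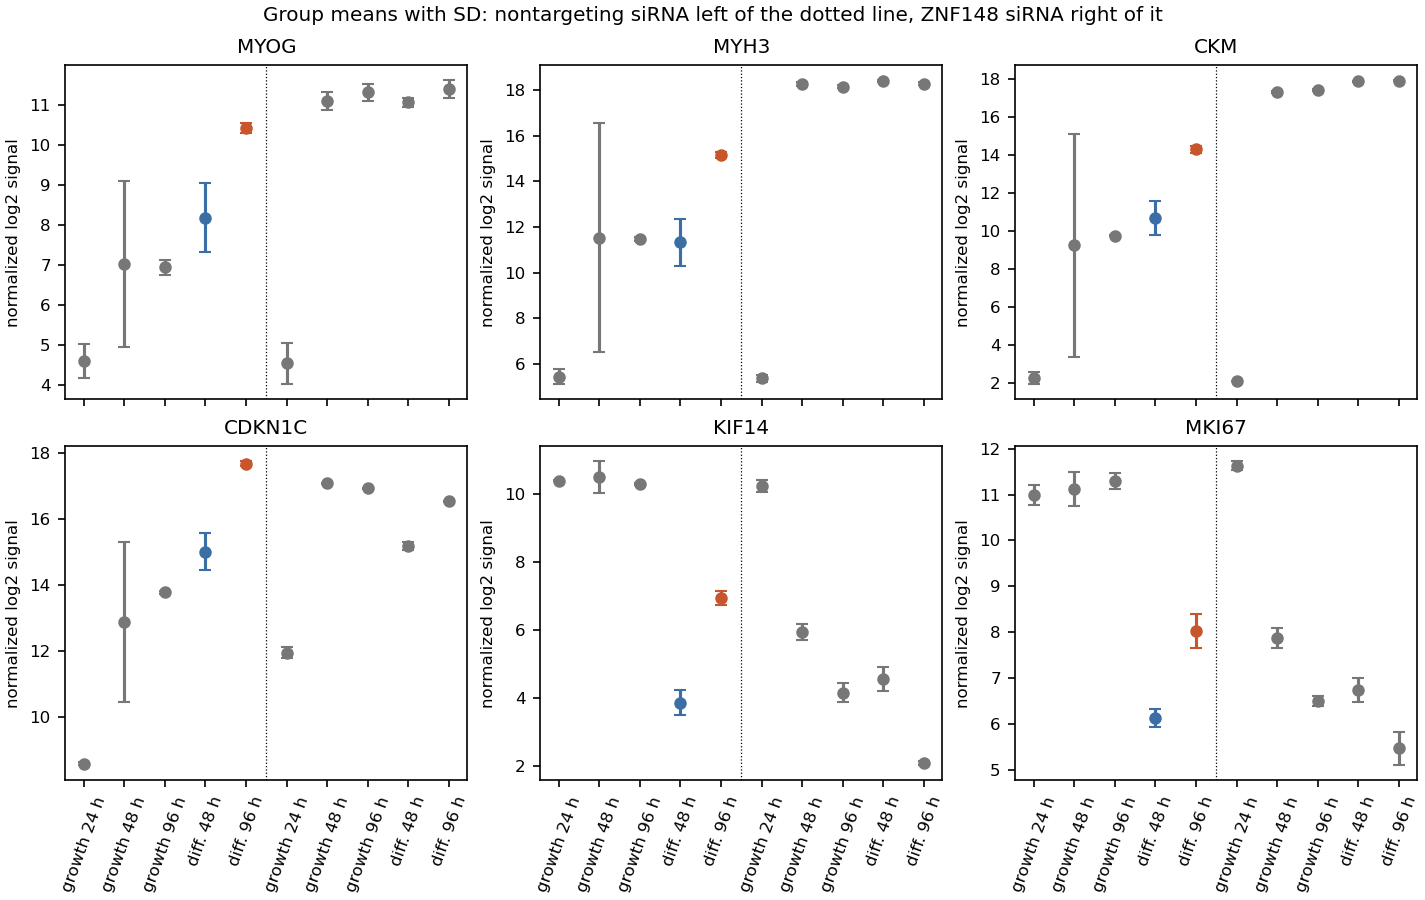
Mean normalized log2 signal with SD in all 10 groups for MYOG, MYH3, CKM, CDKN1C, KIF14 and MKI67, nontargeting siRNA left of the dotted line and ZNF148 siRNA right of it, with the 48 h (blue) and 96 h (red) groups of differentiation media coloured. Groups hold 3 arrays, except nontargeting growth media at 96 h with 2. MYH3 and CKM end below and KIF14 and MKI67 above their ZNF148 siRNA levels at 96 h. For MYOG, MYH3 and CKM the wide bars with nontargeting siRNA in growth media at 48 h come from replicate 1.

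G2 and M phase genes also differed between the siRNAs. Of 55, 46 had a higher time effect with nontargeting siRNA and none a lower one (median 2.71). KIF14 rose by 3.08 with nontargeting siRNA and was at -2.46 after ZNF148 siRNA (difference 5.54 ± 0.30, limma adjusted p 1.89e-06), and CDK1 at 1.65 and -2.59 (4.24 ± 0.31, adjusted p 8.49e-06). KIF14 was not well above background on any ZNF148 siRNA array at 96 h, so its values there are limited by background. At 96 h 53 of 54 G2 and M phase genes were above every ZNF148 siRNA array of that time, with no share over all genes computed. The opposite held for interferon-stimulated genes, of which 35 of 37 had a lower time effect with nontargeting siRNA (median -2.83). IFIT1 went from 13.80 ± 0.20 to 11.61 ± 0.19 with nontargeting siRNA and from 13.41 ± 0.23 to 16.39 ± 0.10 after ZNF148 siRNA.

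By size of the difference GADL1 (7.32), NGFR (7.08), KCNE5 (6.08), ANKRD2 (5.97) and CELA2A (5.94) led upwards, and ACTG2 (-7.15), IFIT1 (-5.16), OAS1 (-4.77), IFI6 (-4.53) and TNC (-4.52) downwards. CELA2A has near-identical copies, so the source of its signal is uncertain. NGFR, the neurotrophin receptor of myoblasts, was at 6.36 ± 1.59 and 10.55 ± 0.10 with nontargeting siRNA and had an effect of -2.90 after ZNF148 siRNA. ACTG2, which fell here, was at an effect of 5.88 there.

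**Figure D5:**
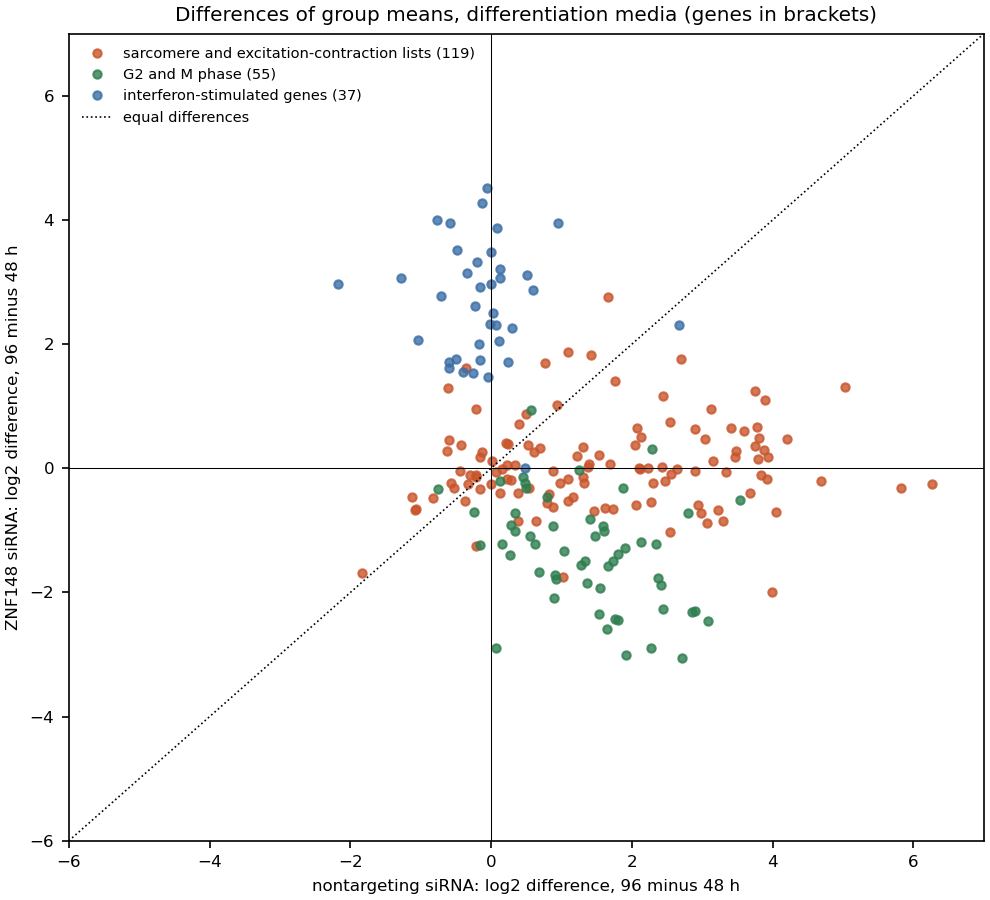
Log2 difference of 96 minus 48 h in differentiation media with nontargeting siRNA (horizontal) and with ZNF148 siRNA (vertical), 1 point per gene of 3 sets of lists, with a dotted line of equal differences. The 2 axes share no arrays. Sarcomere and excitation-contraction genes (red) spread to the right near 0 on the vertical axis, G2 and M phase genes (green) lie to the lower right, and interferon-stimulated genes (blue) lie above the line.

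The time effect was last set against that of nontargeting siRNA in growth media, over 11 arrays with 2 at 96 h in growth media, and 16220 genes. The difference of effects was higher in differentiation media for 569 genes (3.51%) and lower for 908 (5.60%) in limma, and with the slide as a block 824 genes were called in all. Of 55 G2 and M phase genes 35 were higher and none lower (median 1.42), and KIF20A, at -0.52 in growth media, had a difference of 3.37 ± 0.22 (adjusted p 0.000403). The sarcomere comparison depended on the array that stood apart, since none of 81 genes was higher and 1 lower (median 1.87), against 12 called in either direction without that array (9.11% of all genes were called in either direction with it), and of 33 excitation-contraction genes 4 were higher, against 11 called without it. CKM had a difference of 3.096 ± 3.473 with an adjusted p of 0.586. Among the largest, KCNE5 (4.82), AIF1L (4.51), SHROOM2 (4.20), DMBT1 (4.05) and MAP6D1 (3.81) had higher effects in differentiation media, and PTGIS (-4.28), ATP2A3 (-4.26), DPP4 (-3.47), CRABP2 (-3.15) and STAC (-3.12) lower ones. In growth media AIF1L and CRABP2 had effects of 0.03 and -0.08. The array that stood apart enters all these differences. At 48 h in growth media the SD was 1.68 for KCNE5, 1.52 for MAP6D1, 1.12 for DMBT1 and 0.98 for AIF1L. It was 0.22 for SHROOM2 and 0.21 for CRABP2.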

How the data were processed

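Total RNA of 29 LHCN-M2 cultures was labelled with Cy3 and hybridized to 1-colour Agilent arrays, 1 array a culture. The authors deposited background-subtracted intensity per spot from Agilent Feature Extraction 10.7.3.1 (version per the headers of the scanner output, while the methods name another version). The authors also deposited log2 values, quantile normalized over all samples, which correlated at 0.999998 or more with the values used here and served as an alternative. Of 58201 probes, 31104 had 1 gene symbol, and 22439 genes had a probe.

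Here the processed intensity was taken to log2, control spots were left out, spots of a probe were averaged and the 29 arrays were quantile normalized. Probes well above background on at least 3 of the 6 arrays (29282) were tested with limma 3.58.1 (lmFit and eBayes) in R 4.3.3, with the data.table package, version 1.17.8, on the 6 arrays, and differences of time effects on 12 and 11 arrays. Each gene stood by its brightest probe. Simulated data had independent normal noise, with 1 spread per probe at both times, and few changed probes among 29282. On them the test recovered 71.2% of 66 changes of 1.5 (log2), 92.5% of 67 of 2 and 95.5% of 67 of 3. It made 6 false calls among the unchanged probes. The real arrays varied more at 48 h and far more probes were called, so these rates need not hold for them. The number of arrays limits the precision.

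Genes were named by rule: a fixed set of myogenic, contractile and cell cycle genes, the 10 largest rises and falls among genes well above background on all 6 arrays without overlap, the 5 largest bounds each way, and the called members with the largest changes in each list. Other members were named for their role, after their values were seen. The members and lists were chosen with earlier results of these data known. Alternatives were other scalings, background corrections, filters, variance models and blocks, the methods' t-test, and each array left out. The slide block for the differences of effects was added after seeing the data. Background correction by normexp used median signals, since mean signals were not used here. Same-numbered replicates deviated with correlations of 0.00686, 0.105 and -0.121, and the main fit did not pair them. So few values cannot show whether cultures of the same number were started together. Promoters came from RefSeq (GRCh38.p14, 12097 of 15603 tested genes matched, the first listed start), and the CCAAT box, the cell cycle homology region and the TATA box were chosen after values were seen. Probe sequences were not analysed here. Values of some list members are not reported here.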

Additional observations from a re-analysis of the deposited data

Results flagged for a closer look

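Between nontargeting and ZNF148 siRNA in differentiation media the time effect itself differed, by limma's test of the difference over 12 arrays, for 1719 genes that were higher with nontargeting siRNA and 1428 that were lower. The largest differences were GADL1 (7.32), NGFR (7.08), KCNE5 (6.08), ANKRD2 (5.97) and CELA2A (5.94) above 0, and ACTG2 (-7.15), IFIT1 (-5.16), OAS1 (-4.77), IFI6 (-4.53) and TNC (-4.52) below it. GADL1 rose by 3.46 with nontargeting siRNA and was at -3.86 after ZNF148 siRNA.

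Between differentiation and growth media with nontargeting siRNA the time effect differed for 569 genes upwards and 908 downwards over 11 arrays. KCNE5 (4.82), AIF1L (4.51), SHROOM2 (4.20), DMBT1 (4.05) and MAP6D1 (3.81) led above 0, and PTGIS (-4.28), ATP2A3 (-4.26), DPP4 (-3.47), CRABP2 (-3.15) and STAC (-3.12) below it. Replicate 1 of growth media at 48 h, which stood apart in muscle genes, enters these differences. In that group the SD was 0.98 to 1.68 for KCNE5, AIF1L, DMBT1 and MAP6D1, and 0.22 for SHROOM2. Groups of 3 arrays were too small for a test of single arrays that lie apart.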

How the results depend on the processing

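The 1705 genes called (990 higher, 715 lower) numbered 1415 to 1791 under other scalings, filters, variance models and the slide block, 1031 with normexp (635 and 396) and 7059 without the fold threshold (3418 and 3641). For probes normexp gave 1426 and no fold threshold 11663. With the replicate number as a block 1656 genes were called (975 and 681).

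Without the fold threshold 7059 of all 15603 genes were called, 21.9% higher and 23.3% lower, and list counts are to be read against that share. The calls rose to 17 of 27 for progenitor signals, 13 of 26 for adhesion and fusion, and 11 of 12 for myosin light chains. They were 11 of 18 for the dystrophin complex, 21 of 35 for glycolysis, 41 of 76 for oxidative phosphorylation and 12 of 22 for mitochondrial regulators. They were 5 of 10 for CDK inhibitors, 24 of 48 for S phase, 41 of 53 for matrix and 11 of 13 for smooth muscle. They were 12 of 18 for the IGF axis, 12 of 24 for cholesterol synthesis, 4 of 9 for small heat shock proteins and 14 of 20 for atrophy. They were 12 of 36 for interferon, 12 of 25 for inflammatory genes, 15 of 22 for p53 targets, 11 of 22 for amino acid stress and 21 of 50 for histones. With normexp they were 3 for glycolysis, 2 for mitochondrial regulators, 4 for S phase, 0 for cholesterol synthesis and 3 for histones. A fit over all 29 arrays left 2 myosin heavy chains, 1 oxidative phosphorylation gene and 2 mitochondrial regulators. Oxidative phosphorylation also had 1 call without the filter, with the replicate block and with the methods' t-test after Benjamini-Hochberg adjustment, and cholesterol synthesis 2 with array weights. The methods' t-test at its unadjusted threshold gave 985 higher and 707 lower genes, and 914 and 637 adjusted.

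For the difference against ZNF148 siRNA the 29-array fit gave 11 excitation-contraction and 20 sarcomere genes among 3016 genes called. Against growth media the slide block, added after seeing the data, gave 824 genes, 1 excitation-contraction and 2 sarcomere genes. The 29-array fit gave 12 excitation-contraction and 15 sarcomere genes among 1811 genes called, and normexp 4 sarcomere genes among 1022. Leaving out 1 array gave 1523 to 1956 genes and 2495 to 3228 probes, 1 to 2 calls for oxidative phosphorylation, 1 to 3 for cholesterol synthesis and 2 to 4 for small heat shock proteins (the highest of both without replicate 1 at 48 h). It gave 0 to 11 excitation-contraction and 1 to 12 sarcomere genes against growth media, both highest without replicate 1 of growth media at 48 h. The mean over probes turned MYMK to 1.92 and PAX7 to 2.03. The cause was not tested for any of these.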
